A study of Mus musculus with 14 samples.

Results

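Colitis-associated and sporadic tumors of the mouse distal colon were set against each other directly, tumor array against tumor array, across every probe set of the deposited intensity table except the control probe sets whose names begin with AFFX. The comparison used 9 of the 14 arrays, 4 of colitis-associated tumors (called CAC tumors below, after their label) and 5 of sporadic tumors, and tested 22626 probe sets, among them those of 13084 genes. These arrays were chosen from the labels alone, without any measured value. The question was which transcripts separate tumors that arose after colitis from tumors that arose from an inherited Apc mutation.

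All mice were male. The CAC tumors came from wildtype C57BL/6J mice that received azoxymethane, a carcinogen, by intraperitoneal injection at 10 mg/kg. These mice then had 3 cycles of dextran sodium sulfate, an agent that injures the colonic epithelium, at 2.5% in the drinking water for 7 days, each followed by 14 days of plain water. The sporadic tumors came from C57BL/6J-ApcMin/+/J mice, which carry an Apc mutation in every cell, and for which the labels name no treatment. Each tumor array holds 1 tumor of 1 mouse from the lower end of the large intestine, and the labels state that tumors of both models were of similar size. The tumors had passed through the same short chelating incubation as the control epithelium. Tumor-free distal epithelium served as control in 2 CAC pools, each of 5 mice, and in 3 sporadic pools, each of 4 mice, whose control mice are also labelled ApcMin/+. The labels give no ages, and they do not say what treatment the CAC control mice had. Every CAC array belongs to experimental block 1 and every sporadic array to block 2, so model and block cannot be told apart in any value below. Because the models also differ in Apc genotype and in both agents together, the share of each in a difference cannot be told apart either.

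As background, Apc is a scaffold of the complex that marks beta-catenin, the product of Ctnnb1, for destruction. Tumors of ApcMin/+ mice lose the remaining Apc allele, and tumors induced by azoxymethane often carry mutations in Ctnnb1 itself. Both routes let beta-catenin switch on Wnt target genes, several of which, such as Axin2, Rnf43 and the Dkk and Notum genes, feed back on the pathway. Repeated colitis adds epithelial injury and repair, immune cells in the mucosa, and ligands of the EGF receptor family.

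Values below are GCRMA intensities, an array signal corrected for background by the authors. They are given in the order CAC tumors 1 to 4 and sporadic tumors 1 to 5. A difference is the mean log2 intensity of the CAC tumors minus that of the sporadic tumors, with its standard error from limma (n = 4 and n = 5). A transcript is called higher or lower where limma's p, adjusted by Benjamini-Hochberg over all 22626 probe sets, is under 0.05. In whole tumors, more cells of a type and more RNA per cell cannot be told apart. Precision is limited by how few arrays each group has.

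Array medians were 17 in the CAC tumors and 18 in the sporadic tumors. Upper quartiles were 122 to 125 in the CAC tumors and 131 to 136 in the sporadic tumors, so the arrays did not share a common distribution. The first principal component over the 9 tumor arrays held 41.28% of the variance and had the CAC tumors at 33.9 to 46.2 and the sporadic tumors at -42.0 to -20.9. CAC tumor 1 stood apart on the second component, which held 19.66%, at 64.4 against -30.1 to 12.4 for the other arrays. That array alone had high signals of squamous keratins, such as Krt5 (1866, 8, 8 and 8 in the CAC tumors and 7, 8, 8, 7 and 7 in the sporadic tumors). It also had the highest neutrophil signal, with S100a8 at 6193, 961, 1019 and 102 in the CAC tumors and 218, 879, 998, 506 and 384 in the sporadic tumors. It had the lowest MHC class II signal, with H2-Aa at 60, 861, 1680 and 821 in the CAC tumors and 293, 914, 143, 544 and 226 in the sporadic tumors. Calls that change without CAC tumor 1 are therefore given for most lists. That array was singled out after its values were seen. Without it, 1290 of 22626 probe sets were higher and 1136 lower, and counts from that fit stand beside these. The mean log2 signal of 18S ribosomal RNA was 4.69 ± 0.52 (SD, n = 4) in CAC and 2.86 ± 0.04 (SD, n = 5) in sporadic tumors (exact two-sided permutation p = 0.00794, the smallest that 126 splits allow). Beta-actin's 3' probe set over its 5' probe set, read as a mark of how intact the RNA is, had a log2 ratio of 0.793 ± 0.036 against 1.08 ± 0.11 (exact two-sided permutation p = 0.00794). The control pools differed in the same direction in both, with 18S at 5.77 against 2.89 and beta-actin at 0.940 against 1.10. The same ratio for Gapdh was -0.214 ± 0.077 in CAC and -0.043 ± 0.11 in sporadic tumors (exact two-sided permutation p = 0.0635), and the groups overlapped. The part of RNA preparation in the results below was not tested.

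Between the tumors of both models, 1183 probe sets (5.23% of those tested) were higher and 1283 (5.67%) lower in the CAC tumors, together 2466 or 10.9%. The calls differed in kind. Of the higher calls, 557 had a mean intensity under 10 in both groups, near the floor of the array, where a difference of 1 rounded unit without spread passes the test. Of the lower calls, 7 did. At least 2-fold and with a higher group mean of 32 or more, 201 probe sets were higher and 458 lower in the CAC tumors. Counting 1 probe set per gene, 650 genes (4.97%) were higher and 845 (6.46%) lower. Both means were under 10 for 297 of the higher and 5 of the lower genes, so the 4.97% set beside lists below includes many such calls. At least 2-fold and with a higher group mean of 32 or more, there were 105 higher genes (0.803%) and 285 lower genes (2.18%). Without overlap between the groups, 854 genes (6.53%) were higher and 1078 (8.24%) lower. The gene lists whose counts are set beside these shares below were chosen with earlier results of these data known.

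The control epithelia of the same blocks offer the same contrast without tumors, although purified epithelium is not the tissue of a tumor. Between them 3171 probe sets (14%) were called, 1722 higher (7.61%) and 1449 lower (6.4%) in the CAC model. That fit took its spread from all 14 arrays, under which the tumors gave 3498 calls in place of 2466. From the control arrays alone 1838 were called, so the totals of tumors and controls are not to be compared directly. Of the 105 higher genes, 20 were also called higher in the CAC controls, and the control difference was at least as large as the tumor difference for 10. Of the 285 lower genes, 89 were also called lower in the CAC controls, and the control difference was at least as large for 37. A test of the tumor difference minus the control difference, added after the tumor values were seen, called 1741 probe sets (7.69%). It passed, in the direction of the tumor difference, for 28 of the 105 higher and 67 of the 285 lower genes. These genes were selected for their tumor difference on the same arrays, which favors passing in that direction, so 7.69% is no matching reference. The plot of tumor against control differences shows genes near the zero line of the controls, genes near the diagonal and many between them.

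Where a gene has several probe sets, the one given is the brightest over the tumors, and the others can differ. Of the called genes named below, 34 had another probe set with a group mean of at least 10. In 20 of them all such probe sets were called. In the other 14 at least 1 was not called, namely Ceacam1, Cpt2, Hdac11, Hspb8, Ighg, Malat1, Mcl1, Pfkp, Slc2a1, Spock2, Sptssb, Timp2, Trib2 and Vim. For Cpt2 and Mcl1 an uncalled probe set had the opposite sign.

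**Figure D1:**
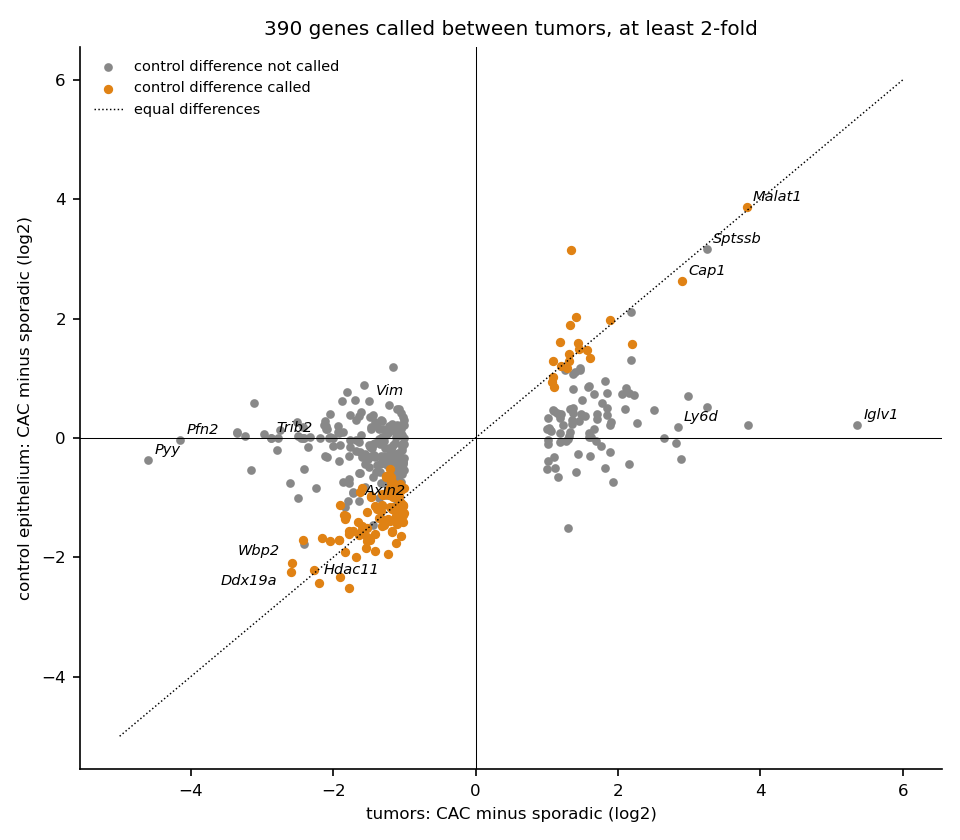
Difference between CAC and sporadic tumors (horizontal axis, log2) against the same difference between the control epithelia (vertical axis, log2) for the 390 genes called between tumors at least 2-fold with a higher group mean of 32 or more. Orange points were also called between the controls, the dotted line marks equal differences, and Malat1 and Cap1 lie near it while Iglv1, Pyy and Pfn2 lie near a control difference of 0.

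Iglv1 and Jchain, genes of antibody-producing cells, led the differences in favor of the CAC tumors. Plasma cells secrete immunoglobulins made of heavy and light chains, which the joining chain Jchain links into polymers for transport across the gut epithelium. Iglv1, a lambda light chain gene, read 87, 548, 823 and 338 in the CAC tumors and 7, 7, 7, 16 and 7 in the sporadic tumors. Every CAC tumor exceeded every sporadic tumor, and 4 of the 5 sporadic tumors sat at the floor (5.36 ± 0.66, adjusted p = 0.00182). The value was 8 and 9 in the CAC control pools and 7, 7 and 8 in the sporadic control pools.

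Jchain read 344, 1333, 2299 and 1524 in the CAC tumors and 67, 217, 14, 163 and 97 in the sporadic tumors, again without overlap (3.82 ± 0.92, adjusted p = 0.0391). Ighg, a probe set for gamma heavy chains, read 44, 118, 227 and 52 in the CAC tumors and 7, 8, 7, 22 and 8 in the sporadic tumors, with sporadic tumor 4 above the other sporadic tumors (3.25 ± 0.58, adjusted p = 0.0117). The probe set for Igh-1a, another gamma heavy chain, read 42, 167, 141 and 29 in the CAC tumors and 6, 14, 6, 19 and 10 in the sporadic tumors (2.88 ± 0.65, adjusted p = 0.0307). LOC384413, which the deposited table also titles an immunoglobulin chain, read 27, 74, 14 and 54 in the CAC tumors and 5 in all 5 sporadic tumors (2.81 ± 0.46, adjusted p = 0.00765). Among these genes, Jchain lost its call when CAC tumor 2, 3 or 4 or sporadic tumor 1, 4 or 5 was left out (adjusted p up to 0.104), and Igh-1a when CAC tumor 2 or 3 or sporadic tumor 1, 2, 3 or 5 was left out (adjusted p up to 0.081).

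The deposited table titles 59 probe sets as immunoglobulin heavy, light or joining chains, a set gathered after the values above were seen. Of these, 14 were higher in the CAC tumors, beside 5.23% of all probe sets, and 0 lower. For 3 of the 14 the call rested on 1 rounded unit near the floor. Without overlap 24 were higher in CAC, beside 6.81% of all probe sets, and 0 lower. The median difference over the 59 was 0.49. Without CAC tumor 1, 17 of the 59 were higher, beside 1290 of all 22626 probe sets. Their summed intensity was 38488, 75172, 95713 and 64603 in the CAC tumors and 6401, 18910, 1148, 9738 and 6774 in the sporadic tumors, and it was 521 to 985 in the 5 control pools. Immunoglobulin probe sets share sequence with one another, so these counts are not independent. Of 11 listed B and plasma cell markers, 2 were called higher, Jchain and Iglv1, beside 4.97% of all genes, and 7 had both means under 10. The median difference of those 11 was 0.11. Ighg1 was high on CAC tumor 1 alone (2028, 64, 77 and 62 in the CAC tumors and 61, 67, 60, 60 and 57 in the sporadic tumors), and of 16 T and NK cell markers, 0 were called (3 at an unadjusted limma p under 0.05) and 14 had both means under 10. Cd38, an ectoenzyme that breaks down NAD and is found on plasma cells and other immune cells, read 246, 895, 1494 and 818 in the CAC tumors and 230, 175, 126, 157 and 94 in the sporadic tumors (2.27 ± 0.53, adjusted p = 0.0353). Its lowest CAC value, on CAC tumor 1, lay just above the highest sporadic value, and the call was lost when CAC tumor 2, 3 or 4 or sporadic tumor 2, 3, 4 or 5 was left out (adjusted p up to 0.0914).

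**Figure D2:**
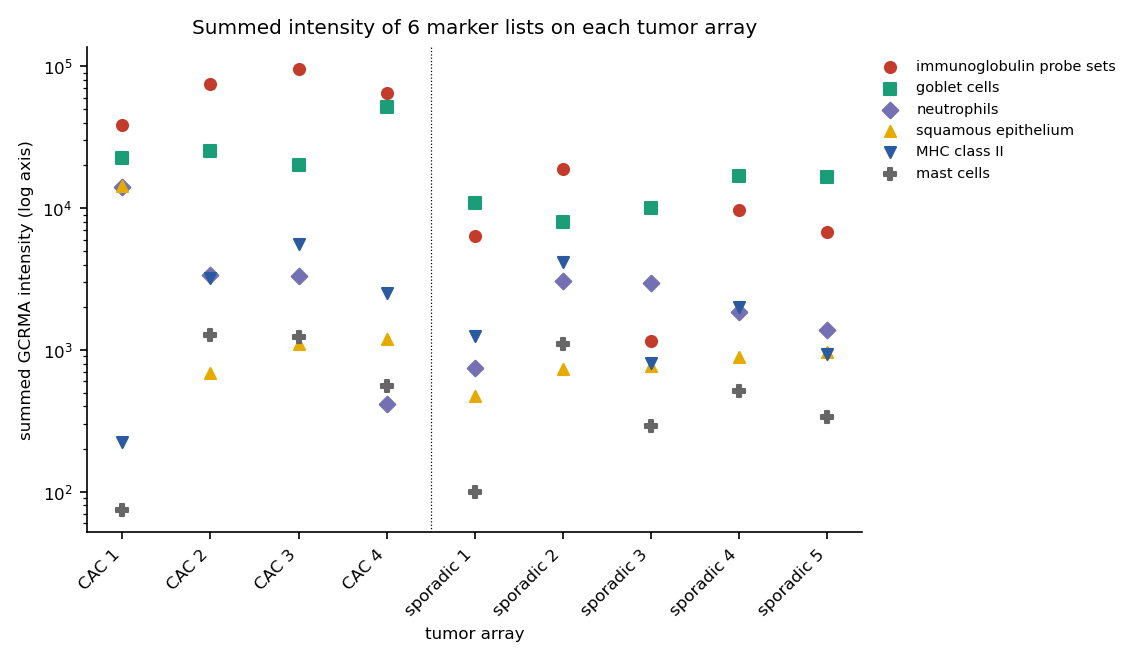
Summed GCRMA intensity (log axis) of the immunoglobulin probe sets and of 5 marker lists on each of the 9 tumor arrays. The immunoglobulin sum was 38488 to 95713 in the CAC tumors and 1148 to 18910 in the sporadic tumors, whereas the squamous and neutrophil sums were high on CAC tumor 1 alone.

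Ly6d, Gpx2 and Upp1 were also higher in the CAC tumors. Ly6d, a surface protein of the Ly6 family found on squamous epithelium and lymphoid cells, read 638, 309, 686 and 504 in the CAC tumors and 55, 46, 138, 87 and 61 in the sporadic tumors (2.84 ± 0.38, adjusted p = 0.00298), without overlap. It was at 6 and 6 in the CAC control pools and 5, 5 and 6 in the sporadic control pools. The other 12 measured squamous markers were not called, and Krt5 lay at the floor in CAC tumors 2 to 4, where Ly6d was high. The summed squamous list was 692 to 14333 in the CAC tumors and 476 to 962 in the sporadic tumors, the top value being that of CAC tumor 1.

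Gpx2, the glutathione peroxidase of the gut epithelium, read 8059, 9152, 8744 and 8154 in the CAC tumors and 3752, 3426, 3527, 2177 and 1782 in the sporadic tumors. All CAC tumors were high and close together, more than any sporadic tumor (1.60 ± 0.24, adjusted p = 0.00526), while the controls were at 1952 and 2953 in the CAC control pools and 3117, 2204 and 1937 in the sporadic control pools. The tumor difference exceeded the control difference by 1.58 (adjusted p = 0.0418). Of 20 xenobiotic and antioxidant enzymes, 3 were higher, beside 4.97% of all genes, and 0 lower, with a median of 0.39. The others were Gclm, a subunit of the enzyme that starts glutathione synthesis (0.46 ± 0.10, adjusted p = 0.0329), whose call was lost when CAC tumor 2, 3 or 4 or sporadic tumor 2 or 4 was left out (adjusted p up to 0.0847), and Cyp1b1, called at 7 against 6 units near the floor.

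Upp1, uridine phosphorylase, which releases uracil from uridine, read 162, 155, 146 and 120 in the CAC tumors and 51, 37, 31, 34 and 26 in the sporadic tumors, with a gap between the groups (2.05 ± 0.20, adjusted p = 4.05e-04). All tumors lay below all control pools (764 and 878 in the CAC control pools and 524, 476 and 471 in the sporadic control pools). Tspan8, a tetraspanin of epithelial membranes, read 1744, 1624, 1635 and 2173 in the CAC tumors and 500, 333, 646, 592 and 474 in the sporadic tumors (1.84 ± 0.20, adjusted p = 9.32e-04). Serpinb1a, an inhibitor of neutrophil proteases, read 1317, 1830, 1989 and 2352 in the CAC tumors and 436, 577, 639, 698 and 305 in the sporadic tumors (1.85 ± 0.28, adjusted p = 0.00562). In Tspan8 and Serpinb1a the groups did not overlap. Mgst3, a membrane-bound glutathione transferase (1.66 ± 0.31, adjusted p = 0.0147), and Gna14, a G protein alpha subunit (2.15 ± 0.37, adjusted p = 0.00977), were higher too. So was Dapk2, a kinase regulated by calmodulin (1.89 ± 0.22, adjusted p = 0.00146). These 6 genes were chosen after their values were seen, and none of their calls was lost without any single array.

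Other genes among the 15 highest were B3galt5, a galactosyltransferase that builds type 1 glycan chains (49, 28, 76 and 75 in the CAC tumors and 13, 5, 5, 7 and 6 in the sporadic tumors; 2.98 ± 0.40, adjusted p = 0.00315), Selenom and Plet1. Selenom, a selenoprotein of the endoplasmic reticulum, read 124, 97, 111 and 175 in the CAC tumors and 39, 28, 12, 32 and 36 in the sporadic tumors (2.18 ± 0.37, adjusted p = 0.00942). Plet1, a surface protein of epithelial progenitors, read 371, 514, 974 and 317 in the CAC tumors and 115, 89, 101, 135 and 110 in the sporadic tumors (2.18 ± 0.33, adjusted p = 0.0051). The groups did not overlap in any of them. Plet1 and Sptssb, a subunit of the enzyme that starts sphingolipid synthesis, differed as much between the control pools. Sptssb read 107, 63, 175 and 286 in the CAC tumors and 21, 12, 26, 7 and 13 in the sporadic tumors (3.25 ± 0.54, adjusted p = 0.0086). Its controls read 188 and 12 in the CAC control pools and 5, 5 and 6 in the sporadic control pools, a difference of 3.16 (adjusted p = 0.0636). The control difference of Plet1 was 2.11 (adjusted p = 0.0963). Cwh43, which remodels the lipid of glycolipid anchors, was the least firm of the 15 (303, 176, 150 and 279 in the CAC tumors and 30, 39, 136, 75 and 23 in the sporadic tumors; 2.16 ± 0.56, adjusted p = 0.0498). Its call was lost when CAC tumor 1, 2, 3 or 4 or sporadic tumor 1, 2, 4 or 5 was left out (adjusted p up to 0.123).

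**Figure D3:**
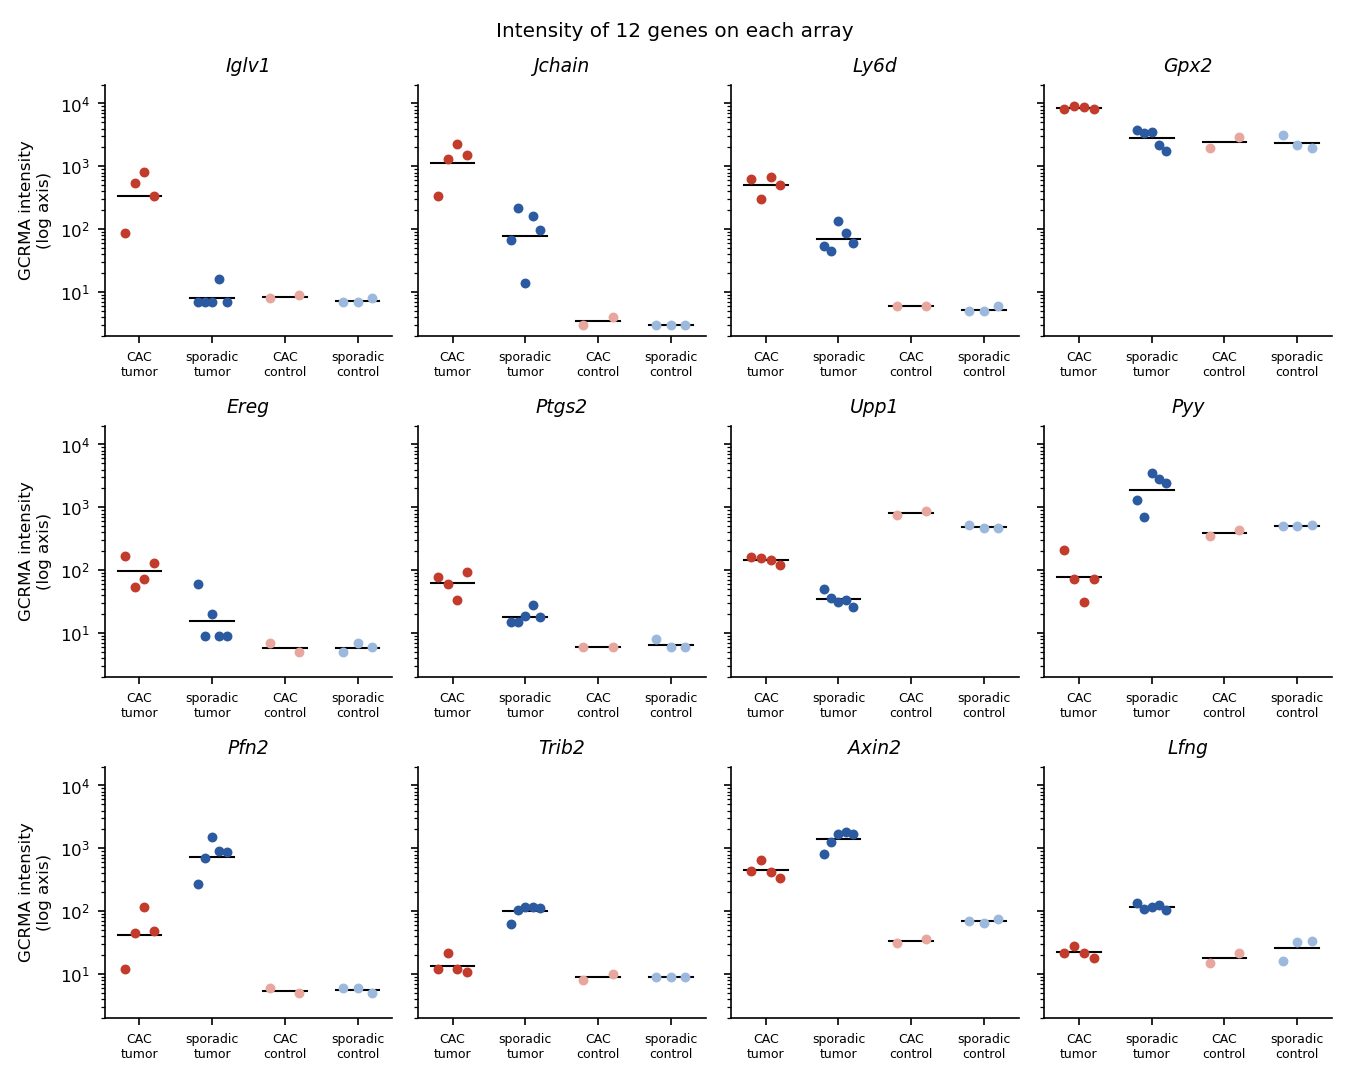
GCRMA intensity (log axis) of 12 genes on each array, with 1 point per array and a bar at the geometric mean, for CAC tumors (dark red), sporadic tumors (dark blue) and the control pools of each model (light red and light blue). Ereg is the gene of the 12 in which the tumor groups overlap, and Upp1 is lower in all tumors than in all control pools.

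Most markers of mature epithelial cells had positive differences, but few passed the test. Of 11 goblet cell genes, 2 were called higher, beside 4.97% of all genes, and 0 lower. All 11 differences were positive, and the median was 1.21, beside a median of 0 over all genes tested and of 0.32 for the same list between the controls. Spdef, a transcription factor of goblet cell maturation, read 43, 21, 26 and 59 in the CAC tumors and 10, 6, 7, 13 and 16 in the sporadic tumors (1.82 ± 0.41, adjusted p = 0.0315). The groups did not overlap. Muc13, a membrane mucin, had 0.83 ± 0.18, adjusted p = 0.0274. Spdef lost its call when CAC tumor 1, 3 or 4 or sporadic tumor 1, 2 or 3 was left out (adjusted p up to 0.0744), and Muc13 when CAC tumor 2, 3 or 4 or sporadic tumor 1, 3 or 5 was left out (adjusted p up to 0.078). The secreted products varied within the CAC group, with Zg16, a lectin of goblet cells, at 164, 3323, 1938 and 13687 in the CAC tumors and 352, 1531, 1747, 1211 and 224 in the sporadic tumors. Clca1 read 9, 763, 498 and 2863 in the CAC tumors and 107, 270, 208, 138 and 56 in the sporadic tumors. CAC tumor 4 was the highest and CAC tumor 1 the lowest in both. The summed goblet cell list was 20052 to 52055 in CAC and 7931 to 16807 in sporadic tumors.

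Of 16 colonocyte genes, 3 were higher, beside 4.97% of all genes, and 0 lower. The median was 0.81, and it was 0.66 for the same list between the controls. Lgals4, a lectin of the absorptive epithelium, read 12690, 11957, 11540 and 13881 in the CAC tumors and 6450, 5238, 7268, 8490 and 5645 in the sporadic tumors (0.94 ± 0.15, adjusted p = 0.00625), without overlap and with every call kept when 1 array was left out. Guca2b, the hormone uroguanylin, had 1.18 ± 0.26, adjusted p = 0.0262, and Ceacam1, an adhesion molecule, had 1.47 ± 0.37, adjusted p = 0.0466. Their calls were lost when CAC tumor 1, 2, 3 or 4 or sporadic tumor 3 or 4 was left out (adjusted p up to 0.0752) for Guca2b, and when CAC tumor 1, 2, 3 or 4 or sporadic tumor 1, 2, 4 or 5 was left out (adjusted p up to 0.119) for Ceacam1. Krt20, a keratin of surface colonocytes, read 439, 2071, 2611 and 2981 in the CAC tumors and 255, 217, 711, 520 and 202 in the sporadic tumors and did not pass (adjusted p = 0.0693), but did without CAC tumor 1 (2.92, adjusted p = 0.0127). Without that tumor 2 colonocyte genes were higher, Krt20 and Lgals4, and 1 goblet cell gene, Muc13, beside 1290 of 22626 probe sets. Car4, a carbonic anhydrase of surface colonocytes, was above 13 on CAC tumor 4 alone, at 13, 11, 13 and 181 in the CAC tumors and 10, 12, 13, 13 and 10 in the sporadic tumors. The 5 Paneth cell genes measured all had positive differences with a median of 1.10, and 0 were called (2 at an unadjusted limma p under 0.05). Without CAC tumor 1 the median was 1.76, and 1 was higher, Itln1, a lectin (2.35, adjusted p = 0.0179).

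The ligands of the EGF receptor family include epiregulin, amphiregulin and heparin-binding EGF, encoded by Ereg, Areg and Hbegf. Ereg read 169, 54, 73 and 133 in the CAC tumors and 60, 9, 20, 9 and 9 in the sporadic tumors. Sporadic tumor 1 lay above CAC tumor 2, so the groups overlapped, and the difference passed narrowly (2.65 ± 0.68, adjusted p = 0.048). The call was lost when CAC tumor 1, 2, 3 or 4 or sporadic tumor 2, 3, 4 or 5 was left out (adjusted p up to 0.12). Areg read 151, 115, 138 and 205 in the CAC tumors and 41, 43, 85, 190 and 297 in the sporadic tumors and did not pass (0.62 ± 0.65, adjusted p = 0.646). Hbegf read 206, 165, 130 and 214 in the CAC tumors and 81, 154, 93, 243 and 500 in the sporadic tumors (0.05 ± 0.55, adjusted p = 1.00). The highest value of both was in sporadic tumor 5. The control pools differed in the other direction for both, with Areg at 352 and 356 in the CAC control pools and 2024, 3934 and 3943 in the sporadic control pools. For Areg the tumor difference exceeded the control difference by 3.78 (adjusted p = 0.0364), although the tumor difference did not itself pass. Of 12 family ligands and receptors, 2 were called higher, beside 4.97% of all genes, and 0 lower, with a median of 0.11. The call other than Ereg was Egf, at 6 against 5 units on all arrays. Egf alone was called without CAC tumor 1. Egfr, the receptor, read 56, 40, 53 and 88 in the CAC tumors and 34, 49, 41, 23 and 21 in the sporadic tumors (0.83 ± 0.33, adjusted p = 0.162).

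Downstream, Spry2, a feedback inhibitor of ERK signaling, read 199, 187, 166 and 170 in the CAC tumors and 77, 75, 43, 74 and 105 in the sporadic tumors (1.32 ± 0.23, adjusted p = 0.0112), with every CAC tumor above every sporadic tumor. Dusp6, the ERK phosphatase, read 476, 725, 481 and 678 in the CAC tumors and 235, 148, 304, 263 and 493 in the sporadic tumors and did not pass (1.11 ± 0.34, adjusted p = 0.0752). Of 13 ERK output and feedback genes, 1 was higher, beside 4.97% of all genes, and 0 lower, and the median was -0.41. Of 15 immediate early genes, 0 were called (1 at an unadjusted limma p under 0.05), beside 11.4% of all genes called either way. They varied more among the sporadic tumors, as with Egr1 at 570, 633, 305 and 283 in the CAC tumors and 211, 767, 1455, 2118 and 3331 in the sporadic tumors.

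Ptgs2, the inducible cyclooxygenase that starts prostaglandin synthesis, read 79, 60, 34 and 95 in the CAC tumors and 15, 15, 19, 28 and 18 in the sporadic tumors. The lowest CAC tumor, number 3, lay above the highest sporadic tumor, number 4 (1.76 ± 0.33, adjusted p = 0.0144). The control pools lay near the floor (6 and 6 in the CAC control pools and 8, 6 and 6 in the sporadic control pools), and the tumor difference exceeded the control difference by 1.90 (adjusted p = 0.0375). A second probe set gave 1.81 (adjusted p = 0.0189). Ptgs2 was the member called among 13 prostaglandin and lipoxygenase genes, beside 11.4% of all genes called either way. Alox15, a lipoxygenase, read 10, 90, 341 and 249 in the CAC tumors and 8, 7, 7, 8 and 8 in the sporadic tumors and did not pass with all arrays (3.62 ± 0.98, adjusted p = 0.0581), but did without CAC tumor 1 (4.70, adjusted p = 6.58e-04).

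The promoters of Ptgs2 and Upp1, called higher in CAC, and Dkk2, called lower, are shown because each holds a match to a motif searched in the promoters of called genes. They run from 250 bases before to 50 bases after the RefSeq start on GRCm38.p6, both strands were searched, and capitals mark the match. In Ptgs2, at chr1:150099781-150100080 on the plus strand, it is the C/EBP motif TTGCNNAA, which begins 69 bases before the start and which 10.8% of 32851 mouse promoters hold. In Upp1, at chr11:9117758-9118057 on the plus strand, the first of 3 RefSeq starts, it is the AP-1 motif TGANTCA, which begins 45 bases before the start (7.81% of promoters). In Dkk2, at chr3:132085042-132085341 on the plus strand, it is TATAAA, which begins 32 bases before the start (13.6% of promoters).
Ptgs2: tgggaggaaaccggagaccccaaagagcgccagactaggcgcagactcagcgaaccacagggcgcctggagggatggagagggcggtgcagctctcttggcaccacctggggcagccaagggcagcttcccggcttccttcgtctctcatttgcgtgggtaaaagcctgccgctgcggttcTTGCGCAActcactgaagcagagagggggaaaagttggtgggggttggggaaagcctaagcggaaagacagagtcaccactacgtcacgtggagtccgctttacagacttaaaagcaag
Upp1: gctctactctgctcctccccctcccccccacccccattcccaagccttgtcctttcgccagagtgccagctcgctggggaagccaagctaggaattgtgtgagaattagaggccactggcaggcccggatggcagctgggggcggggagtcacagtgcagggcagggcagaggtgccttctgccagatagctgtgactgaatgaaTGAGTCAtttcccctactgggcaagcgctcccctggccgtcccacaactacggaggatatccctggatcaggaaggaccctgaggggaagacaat
Dkk2: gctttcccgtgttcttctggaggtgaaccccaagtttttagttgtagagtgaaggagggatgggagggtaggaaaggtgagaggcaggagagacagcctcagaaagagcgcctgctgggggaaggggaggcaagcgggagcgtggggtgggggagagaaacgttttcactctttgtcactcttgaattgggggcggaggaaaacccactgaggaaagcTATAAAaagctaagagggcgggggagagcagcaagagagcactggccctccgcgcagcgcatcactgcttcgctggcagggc
These are matches of letters. No factor binding was measured, and the motifs overlap no other motif searched. The promoters of Pdia4, Hspb1, Pyy, Axin2, Trib2 and Cap1 were searched too and held no match to any motif, nor did the last Upp1 start. For Axin2 this includes ATCAAAG, the TCF/LEF motif of Wnt targets, which 3.73% of promoters hold.

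Of the Wnt targets and feedback genes, 3 of 19 were lower in the CAC tumors, beside 6.46% of all genes, and 0 higher, and neither Apc nor Ctnnb1 passed the test. Axin2, a scaffold of the beta-catenin destruction complex and a Wnt target, read 433, 653, 429 and 342 in the CAC tumors and 823, 1253, 1723, 1803 and 1711 in the sporadic tumors. All sporadic tumors exceeded all CAC tumors (-1.64 ± 0.29, adjusted p = 0.0109), and all tumors exceeded the control pools (32 and 36 in the CAC control pools and 70, 66 and 76 in the sporadic control pools). The difference between the controls was -1.06 (adjusted p = 0.0623), and the tumor difference did not exceed it by the test (adjusted p = 0.463). A second probe set of Axin2 gave -2.43 (adjusted p = 0.0025).

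Dkk2, a secreted Wnt modulator, read 25, 72, 45 and 17 in the CAC tumors and 98, 272, 190, 260 and 176 in the sporadic tumors (-2.45 ± 0.49, adjusted p = 0.0187), without overlap. It was near the floor in every control pool (5 and 5 in the CAC control pools and 5 in all 3 sporadic control pools). Rnf43, the ubiquitin ligase that removes Wnt receptors, read 255, 313, 198 and 211 in the CAC tumors and 363, 498, 762, 698 and 801 in the sporadic tumors (-1.32 ± 0.27, adjusted p = 0.0211). It was also lower in the controls (19 and 20 in the CAC control pools and 48, 65 and 52 in the sporadic control pools; -1.48, adjusted p = 0.0117). The tumor call was lost when CAC tumor 3 or 4 or sporadic tumor 4 was left out (adjusted p up to 0.0633). The list of 19 had a median of -0.67. Of the 19, 12 had negative differences and 5 did not overlap, all lower in CAC, beside 8.24% of all genes without overlap in that direction. The other 2 without overlap were Prox1 (11, 44, 27 and 38 in the CAC tumors and 49, 68, 45, 112 and 127 in the sporadic tumors; adjusted p = 0.114) and Wif1. Wif1, a secreted Wnt inhibitor, read 437, 1461, 1101 and 1303 in the CAC tumors and 1463, 1757, 2632, 1892 and 2695 in the sporadic tumors (adjusted p = 0.135).

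Not every member had a negative difference. Apcdd1, a membrane Wnt inhibitor, read 290, 870, 1866 and 764 in the CAC tumors and 1177, 5558, 3432, 5211 and 4564 in the sporadic tumors (-2.18 ± 0.65, adjusted p = 0.0719). Notum, a secreted enzyme that inactivates Wnt ligands, read 377, 783, 1209 and 827 in the CAC tumors and 879, 1372, 1181, 1999 and 1832 in the sporadic tumors (-0.92 ± 0.38, adjusted p = 0.187). Lgr5, the receptor gene of intestinal stem cells, read 404, 274, 70 and 127 in the CAC tumors and 199, 48, 27, 79 and 204 in the sporadic tumors (1.08 ± 0.79, adjusted p = 0.474). Ascl2, a stem cell transcription factor, read 392, 235, 143 and 141 in the CAC tumors and 177, 73, 250, 234 and 282 in the sporadic tumors (0.17 ± 0.49, adjusted p = 1.00). None of these 4 passed, and the groups overlapped in each. Apc itself read 178, 148, 129 and 173 in the CAC tumors and 121, 129, 140, 143 and 148 in the sporadic tumors (0.20 ± 0.11, adjusted p = 0.316). Ctnnb1 read 7803, 8556, 7576 and 7233 in the CAC tumors and 7766, 7419, 8001, 8151 and 8280 in the sporadic tumors (-0.03 ± 0.05, adjusted p = 0.918). Their control pools differed by 0.74 (adjusted p = 0.00934) and 0.63 (adjusted p = 1.69e-04) in favor of the CAC model. For Ctnnb1 the tumor difference minus the control difference was -0.66 (adjusted p = 6.56e-04). Wnt6, a Wnt ligand chosen after its values were seen, read 19, 33, 49 and 43 in the CAC tumors and 77, 178, 112, 197 and 211 in the sporadic tumors (-2.10 ± 0.40, adjusted p = 0.0157). All sporadic tumors lay above all CAC tumors.

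**Figure D4:**
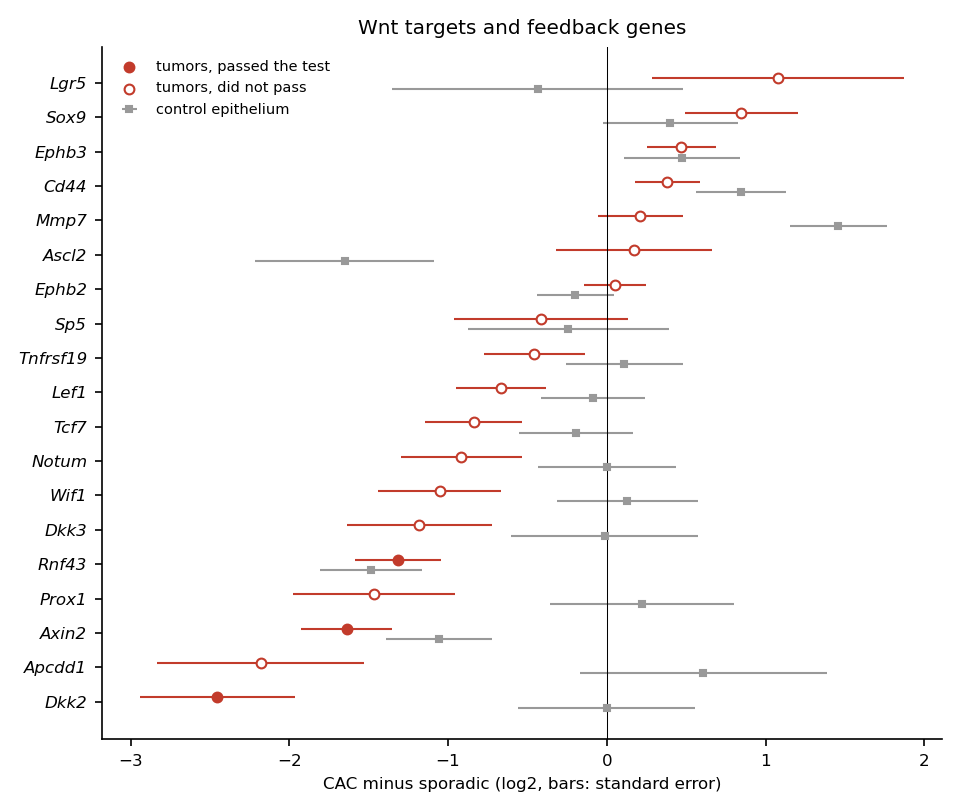
Difference between CAC and sporadic tumors (circles, filled where called) and between their control epithelia (grey squares) for 19 Wnt targets and feedback genes, in log2 with standard errors. Axin2, Dkk2 and Rnf43 were called lower in CAC tumors, and 7 genes had a positive tumor difference that did not pass.

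Pyy and Pfn2 led the differences in favor of the sporadic tumors. Pyy, peptide YY of enteroendocrine L cells, read 211, 74, 31 and 73 in the CAC tumors and 1323, 717, 3469, 2837 and 2474 in the sporadic tumors. Each sporadic tumor exceeded each CAC tumor (-4.60 ± 0.67, adjusted p = 0.00444), and the control pools lay between them (352 and 440 in the CAC control pools and 514, 505 and 516 in the sporadic control pools). The tumor difference minus the control difference was -4.22 (adjusted p = 0.0193). Pyy stood alone among 14 enteroendocrine genes, 12 of which had both means under 10 in the tumors, with Gcg, another L cell hormone, at 7, 7, 8 and 8 in the CAC tumors and 7, 7, 6, 6 and 6 in the sporadic tumors. Chga, a granule protein, read 10, 8, 8 and 7 in the CAC tumors and 8, 6, 4, 6 and 11 in the sporadic tumors. The summed enteroendocrine list was 110 to 293 in CAC and 799 to 3536 in sporadic tumors. That gap is the gap of Pyy, which made 3469 of 3536 in sporadic tumor 3 and 31 of 110 in CAC tumor 3.

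Pfn2, a profilin that binds actin, read 12, 45, 119 and 48 in the CAC tumors and 272, 697, 1512, 897 and 885 in the sporadic tumors (-4.15 ± 0.73, adjusted p = 0.0111). It was at the floor in the control pools (6 and 5 in the CAC control pools and 6, 6 and 5 in the sporadic control pools). Both other probe sets of Pfn2 gave differences of -4.52 and -4.45. Trib2, a pseudokinase that steers protein degradation, read 12, 22, 12 and 11 in the CAC tumors and 63, 105, 117, 116 and 115 in the sporadic tumors, with 4 of the 5 sporadic tumors close together (-2.88 ± 0.27, adjusted p = 3.99e-04). A second, dim probe set of Trib2 gave -0.37 (adjusted p = 0.173). Lmo2, a transcription cofactor best known in blood and endothelium, read 65, 124, 61 and 25 in the CAC tumors and 259, 624, 781, 927 and 695 in the sporadic tumors (-3.35 ± 0.54, adjusted p = 0.00708). None of the 3 overlapped between groups.

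Lfng, a glycosyltransferase that modifies Notch receptors, read 22, 28, 22 and 18 in the CAC tumors and 136, 111, 118, 126 and 105 in the sporadic tumors (-2.42 ± 0.13, adjusted p = 9.17e-06). The spread within each group was small beside the gap, and the control pools differed by -0.53 (adjusted p = 0.309). Evl, an actin regulator of the Ena/VASP family, read 71, 124, 111 and 76 in the CAC tumors and 472, 435, 517, 563 and 521 in the sporadic tumors (-2.43 ± 0.18, adjusted p = 8.87e-05). Dmpk, a kinase first known from muscle, read 39, 71, 34 and 39 in the CAC tumors and 255, 236, 214, 309 and 229 in the sporadic tumors (-2.49 ± 0.23, adjusted p = 2.96e-04). Robo1, a receptor for Slit guidance proteins, read 45, 130, 106 and 97 in the CAC tumors and 289, 633, 627, 398 and 680 in the sporadic tumors (-2.50 ± 0.39, adjusted p = 0.00611). Neither Evl, Dmpk nor Robo1 overlapped. Anxa6, a membrane-binding annexin, differed by -2.12 ± 0.26, adjusted p = 0.0017. These 5 genes were chosen after their values were seen.

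Of the 15 lowest genes, Ddx19a is described with the control differences, and the 10 others not yet given had differences from -3.36 to -2.61 without overlap. Among them were Dach2, a transcription cofactor (-3.36 ± 0.57, adjusted p = 0.00894), Pdzrn3, a ubiquitin ligase (-3.23 ± 0.45, adjusted p = 0.00381), and Msrb2, which repairs oxidized methionine (-3.15 ± 0.59, adjusted p = 0.0144). The others were Asprv1, a protease known from skin (-2.87 ± 0.44, adjusted p = 0.00547), Slc16a3, a lactate exporter (-2.75 ± 0.46, adjusted p = 0.00894), and Vegfc, a growth factor of lymphatic vessels (-2.61 ± 0.32, adjusted p = 0.00172). Slc16a3 read 12, 56, 37 and 20 in the CAC tumors and 208, 110, 210, 215 and 174 in the sporadic tumors, and Vegfc read 18, 13, 13 and 18 in the CAC tumors and 65, 59, 96, 154 and 127 in the sporadic tumors. Cadps, a priming factor of secretory granules (-3.11 ± 0.78, adjusted p = 0.0457), Rasl11b, a small GTPase (-2.97 ± 0.62, adjusted p = 0.0228), Spock2, a matrix proteoglycan (-2.79 ± 0.67, adjusted p = 0.0388), and Bcam, a laminin receptor (-2.78 ± 0.67, adjusted p = 0.0389), were less firm. Cadps lost its call when CAC tumor 2 or 4 or sporadic tumor 1, 2, 3, 4 or 5 was left out (adjusted p up to 0.0989). Rasl11b lost it when CAC tumor 1, 3 or 4 or sporadic tumor 2, 3, 4 or 5 was left out (adjusted p up to 0.065). Spock2 lost it when CAC tumor 3 or 4 or sporadic tumor 1, 2, 3, 4 or 5 was left out (adjusted p up to 0.0989). Bcam lost it when CAC tumor 2 or 3 or sporadic tumor 1, 2, 3, 4 or 5 was left out (adjusted p up to 0.0872).

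A further 4 genes were picked after their values were seen. Tgfb1, the ligand TGF-beta 1, read 22, 18, 20 and 12 in the CAC tumors and 69, 100, 68, 71 and 63 in the sporadic tumors (-2.06 ± 0.21, adjusted p = 5.96e-04), and it was at 5 in all 5 control pools. Ltbp4, which holds latent TGF-beta in the matrix, read 85, 52, 39 and 74 in the CAC tumors and 310, 288, 255, 359 and 294 in the sporadic tumors (-2.32 ± 0.23, adjusted p = 5.79e-04). Both calls held without any single array, and neither gene overlapped. Smad7, an inhibitor within the pathway, read 20, 66, 51 and 39 in the CAC tumors and 127, 97, 133, 196 and 157 in the sporadic tumors (-1.78 ± 0.37, adjusted p = 0.0213). Bambi, a decoy receptor and Wnt target, read 384, 365, 306 and 152 in the CAC tumors and 527, 1167, 1381, 1733 and 981 in the sporadic tumors (-1.92 ± 0.42, adjusted p = 0.0261). Smad7 lost its call when CAC tumor 4 or sporadic tumor 5 was left out (adjusted p up to 0.0598), and Bambi when CAC tumor 3 or 4 or sporadic tumor 2, 3, 4 or 5 was left out (adjusted p up to 0.0638). Being picked for their difference, these 4 say nothing of other genes of the pathway.

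Some of the largest tumor differences were matched in the control epithelium. Malat1, a nuclear noncoding RNA, read 161, 422, 534 and 346 in the CAC tumors and 21, 46, 13, 23 and 27 in the sporadic tumors (3.81 ± 0.46, adjusted p = 0.00161). Its other probe sets gave 2.31 (adjusted p = 0.0404), 0.66 (adjusted p = 0.105) and 0.44 (adjusted p = 0.121). The controls read 734 and 334 in the CAC control pools and 29, 35 and 39 in the sporadic control pools (3.86, adjusted p = 0.00111). Cap1, an actin-regulating protein, read 52, 87, 95 and 78 in the CAC tumors and 16, 13, 6, 11 and 8 in the sporadic tumors (2.90 ± 0.32, adjusted p = 0.00105). The controls read 78 and 59 in the CAC control pools and 10, 12 and 11 in the sporadic control pools (2.63, adjusted p = 9.03e-04). In both, all block 1 arrays exceeded all block 2 arrays, tumor or control. Rpl27a, a ribosomal protein gene, had 2.20 ± 0.26, adjusted p = 0.00159 in the tumors and 1.58 in the controls (adjusted p = 0.0094).

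In the other direction, Ddx19a, an RNA helicase of messenger RNA export, read 34, 27, 34 and 39 in the CAC tumors and 202, 203, 226, 199 and 172 in the sporadic tumors (-2.59 ± 0.12, adjusted p = 2.2e-06). The controls read 25 and 20 in the CAC control pools and 105, 150 and 77 in the sporadic control pools (-2.25, adjusted p = 8.49e-05). Wbp2, a transcription coactivator, differed by -2.58 in the tumors and -2.10 in the controls, and Hdac11, a deacetylase, by -2.28 and -2.22, each called in both and chosen after their values were seen. A second probe set of Hdac11 gave -0.27 (adjusted p = 0.535) in the tumors. Trp53, the p53 gene, read 212, 144, 208 and 201 in the CAC tumors and 333, 384, 322, 376 and 351 in the sporadic tumors (-0.90 ± 0.12, adjusted p = 0.00354), and its control difference was -0.91 (adjusted p = 0.011). Of 15 p53 target genes 0 were called (4 at an unadjusted limma p under 0.05), beside 11.4% of all genes called either way, with a median of -0.10. For genes of this kind the tumor difference did not exceed the control difference by the test (adjusted p 0.258 to 1.00 over Malat1, Cap1, Rpl27a, Ddx19a, Wbp2, Hdac11 and Trp53).

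The counts of inflammatory gene lists, here and in the next paragraph, are to be read beside 4.97% of all genes higher and 6.46% lower. Of 20 interleukins and cytokines, 2 were higher, Ifng and Tslp, each at 6 against 5 units near the floor, and Il1b read 343, 754, 531 and 189 in the CAC tumors and 116, 262, 267, 413 and 372 in the sporadic tumors (0.61 ± 0.51, adjusted p = 0.535). Of 27 chemokines and receptors, 1 was higher and 1 lower. Cxcl12, a stromal chemokine, read 52, 18, 27 and 31 in the CAC tumors and 14, 13, 10, 11 and 11 in the sporadic tumors (1.35 ± 0.29, adjusted p = 0.0247). Cxcl14, an epithelial chemokine, read 163, 120, 74 and 97 in the CAC tumors and 203, 679, 404, 239 and 392 in the sporadic tumors (-1.68 ± 0.40, adjusted p = 0.0371). Both calls were less firm, lost when CAC tumor 3 or 4 or sporadic tumor 3, 4 or 5 was left out (adjusted p up to 0.0677) for Cxcl12, and when CAC tumor 2, 3 or 4 or sporadic tumor 3 or 5 was left out (adjusted p up to 0.0967) for Cxcl14. Cxcl5, a neutrophil attractant, overlapped, at 587, 498, 1356 and 254 in the CAC tumors and 414, 1917, 786, 670 and 484 in the sporadic tumors. Of 17 STAT3 and NF-kB targets, 1 was higher, Mcl1, a survival factor (0.61 ± 0.11, adjusted p = 0.0128; control difference 0.58, called). Another, Bcl2l1, was lower (-1.12 ± 0.27, adjusted p = 0.0416; call lost when CAC tumor 1, 3 or 4 or sporadic tumor 1, 2, 3, 4 or 5 was left out (adjusted p up to 0.0854)). Of these targets 0 were lower without CAC tumor 1. Of the 6 probe sets of Mcl1, 3 were higher in CAC and 3 were not called.

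The acute-phase and mucosal defence list had a median of 1.10 over 17 genes, and 14 differences were positive. The 1 call was Chil1, near the floor at 5 against 4. Saa1, serum amyloid A, read 46, 2845, 3705 and 2800 in the CAC tumors and 339, 432, 500, 945 and 140 in the sporadic tumors (1.45 ± 1.39, adjusted p = 0.604). CAC tumor 1 was the lowest of the 9 arrays and the other CAC tumors were the highest. Without it, 4 genes were higher, namely Saa1 (2.97, adjusted p = 0.0247), Saa2 (1.69, adjusted p = 0.0342), Duoxa2, a maturation factor of an epithelial oxidase (2.24, adjusted p = 0.0021), and Chil1. In that fit 1290 of 22626 probe sets were higher. Of 8 MHC class II genes the 1 call was H2-Oa, also at 5 against 4, with a median of 0.65 that became 1.14 without CAC tumor 1. Between the controls the median of that list was 0.64. Of 18 interferon response genes 0 were called (1 at an unadjusted limma p under 0.05), with a median of 0.51. Among markers of blood cells, 0 of 19 macrophage genes, 0 of 9 mast cell genes and 0 of 5 red blood cell genes were called (2, 1 and 1 at an unadjusted limma p under 0.05), and of 12 neutrophil genes the 1 call was Mpo at 5 against 4. Itgam, an integrin of myeloid cells, was called lower without CAC tumor 1 (-0.45, adjusted p = 0.00116), near the floor at 9 or less on every tumor array. The summed neutrophil list was 418 to 13998 in CAC and 743 to 3065 in sporadic tumors. Mcpt2, a mast cell protease, read 5, 660, 699 and 222 in the CAC tumors and 28, 129, 60, 79 and 101 in the sporadic tumors, and was called without CAC tumor 1 (2.73, adjusted p = 0.0404).

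Stromal lists held few calls, beside 11.4% of all genes called either way. Of 20 fibroblast and matrix genes, 0 were higher and 1 lower, with a median of 0.33. Vim, vimentin, the filament protein of mesenchymal cells, read 2045, 2246, 1859 and 3114 in the CAC tumors and 5805, 6808, 4916, 6884 and 8036 in the sporadic tumors (-1.50 ± 0.19, adjusted p = 0.00232). Its other probe sets gave smaller differences of -0.91 (adjusted p = 0.0329) and -0.67 (adjusted p = 0.154). In the first of the 3, every sporadic tumor exceeded every CAC tumor, and the tumor difference minus the control difference was -2.12 (adjusted p = 0.011). The collagens did not follow, with Col1a1 at 457, 210, 94 and 193 in the CAC tumors and 1068, 506, 223, 157 and 93 in the sporadic tumors and Col1a2 at 1146, 455, 367 and 567 in the CAC tumors and 1106, 777, 111, 222 and 155 in the sporadic tumors, both overlapping. Of 10 smooth muscle genes 0 were called (3 at an unadjusted limma p under 0.05). Of 12 endothelial genes the 1 call was Cdh5, at 6 in all 4 CAC tumors and 22, 14, 10, 9 and 10 in the sporadic tumors (call lost when CAC tumor 1, 2, 3 or 4 or sporadic tumor 2, 3 or 5 was left out (adjusted p up to 0.108)). Angpt2, a vessel ligand chosen after its values were seen, read 50, 24, 24 and 23 in the CAC tumors and 115, 130, 75, 104 and 130 in the sporadic tumors (-1.93 ± 0.28, adjusted p = 0.00459), without overlap. The calls of Vip (enteric neurons), Trpm5 (tuft cells) and Lep (adipocytes) lay near the floor, at 7 or less on every tumor array.

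Of 18 matrix proteases and plasminogen genes, 0 were higher and 3 lower, beside 6.46% of all genes lower, with a median of -0.10. Without CAC tumor 1 the median was -0.21 and 4 were lower, with Adamts1, a secreted protease, added (-1.33, adjusted p = 0.0413). Mmp14, a membrane protease, read 497, 517, 406 and 346 in the CAC tumors and 1263, 1228, 744, 787 and 963 in the sporadic tumors (-1.16 ± 0.21, adjusted p = 0.0119). Timp2, a protease inhibitor that also helps Mmp14 activate its substrate, read 325, 318, 273 and 289 in the CAC tumors and 539, 851, 658, 529 and 625 in the sporadic tumors (-1.07 ± 0.15, adjusted p = 0.0032). Mmp11, stromelysin 3, read 9, 10, 9 and 9 in the CAC tumors and 16, 31, 22, 25 and 32 in the sporadic tumors (-1.40 ± 0.20, adjusted p = 0.00447), with the CAC values near the floor. The groups did not overlap in any of them, and each call held without any single array. Mmp10 and Mmp7 overlapped, with Mmp7, a Wnt target of tumor epithelium, at 2966, 2455, 3162 and 1776 in the CAC tumors and 2295, 1359, 2995, 2036 and 2627 in the sporadic tumors.

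Over all genes 11.4% were called either way, and the counts in this paragraph stand beside that share. Proliferation genes gave 0 calls among 19 (2 at an unadjusted limma p under 0.05), with a median of -0.13. Hox genes and positional factors gave 0 among 17 (0 at an unadjusted limma p under 0.05), with Hoxb13, a marker of the distal colon, at 1102, 1423, 1625 and 1733 in the CAC tumors and 1548, 1332, 1964, 1797 and 1736 in the sporadic tumors. Hoxb9 was higher without CAC tumor 1 (0.71, adjusted p = 0.0356). Of 14 regenerative and fetal-like epithelial genes, 1 was higher, Ly6a, also called Sca-1, at 3700, 5627, 5303 and 4406 in the CAC tumors and 2248, 2053, 2253, 2131 and 882 in the sporadic tumors (1.37 ± 0.31, adjusted p = 0.0314). Sporadic tumor 5 was far below the others, and the call was lost when CAC tumor 2, 3 or 4 or sporadic tumor 2 or 4 was left out (adjusted p up to 0.0847). Clu, clusterin, read 3184, 4257, 5022 and 4929 in the CAC tumors and 5339, 2496, 2497, 1166 and 1662 in the sporadic tumors (0.90 ± 0.42, adjusted p = 0.243). The controls read 100 and 104 in the CAC control pools and 329, 369 and 312 in the sporadic control pools, and the tumor difference exceeded the control difference by 2.61 (adjusted p = 0.0227).

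Of 13 heat shock and protein folding genes, 1 was higher and 2 lower, beside 4.97% and 6.46% of all genes. Pdia4, a disulfide isomerase of the endoplasmic reticulum, read 231, 443, 338 and 388 in the CAC tumors and 135, 106, 98, 108 and 117 in the sporadic tumors (1.60 ± 0.19, adjusted p = 0.00169), with a control difference of 1.34 that was called too. Hspb1, a small heat shock protein, read 698, 419, 670 and 458 in the CAC tumors and 1264, 2299, 2112, 2287 and 2031 in the sporadic tumors (-1.84 ± 0.24, adjusted p = 0.00251), with a control difference of -1.36, also called. Calr, calreticulin, had -0.88 ± 0.18, adjusted p = 0.0184. Cryab and Hspb8, small heat shock proteins chosen after their values were seen, were lower. Cryab read 11, 9, 9 and 12 in the CAC tumors and 24, 48, 70, 40 and 52 in the sporadic tumors (-2.12 ± 0.30, adjusted p = 0.00364). Hspb8 read 36, 27, 29 and 21 in the CAC tumors and 98, 117, 113, 152 and 164 in the sporadic tumors (-2.19 ± 0.21, adjusted p = 3.73e-04). In these 5 genes the groups did not overlap. For Cryab and Hspb8 the control difference was not called and the tumor difference exceeded it (adjusted p = 0.0054 and adjusted p = 4.52e-04).

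Counts in the metabolic lists stand beside 4.97% of all genes higher and 6.46% lower. Of 15 cholesterol synthesis genes, 0 were higher and 2 lower. Srebf2, the master regulator of cholesterol synthesis, was lower (-0.35 ± 0.08, adjusted p = 0.0402; call lost when CAC tumor 1, 2 or 4 or sporadic tumor 1, 2, 4 or 5 was left out (adjusted p up to 0.104)). Of 13 glycolysis and hypoxia genes, 2 were higher and 1 lower. Pkm, pyruvate kinase, read 2131, 2077, 2291 and 2078 in the CAC tumors and 3442, 2940, 3515, 3248 and 2904 in the sporadic tumors (-0.58 ± 0.07, adjusted p = 0.00155). Pfkp, a phosphofructokinase, had 1.18 ± 0.27, adjusted p = 0.033, and Slc2a1, the glucose transporter GLUT1, had 0.92 ± 0.22, adjusted p = 0.0404. Their calls were lost when CAC tumor 2, 3 or 4 or sporadic tumor 2, 3, 4 or 5 was left out (adjusted p up to 0.0898) for Pfkp, and when CAC tumor 2, 3 or 4 or sporadic tumor 1, 2, 3 or 4 was left out (adjusted p up to 0.106) for Slc2a1. Without CAC tumor 1, Hk2, a hexokinase, was also called higher (1.26, adjusted p = 0.0296), and Bnip3, a mitophagy receptor, lower (-0.87, adjusted p = 0.00866). Of 17 fatty acid oxidation genes 2 were lower, Cpt2 (-0.92 ± 0.22, adjusted p = 0.0413; call lost when CAC tumor 2 or 4 or sporadic tumor 1, 2, 3, 4 or 5 was left out (adjusted p up to 0.101)) and Hadha (-0.35 ± 0.07, adjusted p = 0.0167), both enzymes of mitochondrial beta-oxidation. When CAC tumor 1 was left out Acadvl, another, was higher (0.46, adjusted p = 4.2e-04).

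Of 13 circadian clock genes, 2 were higher and 1 lower, beside 4.97% and 6.46% of all genes. The labels used here give no time of day of sampling. Nr1d1, a clock repressor, read 6, 4, 3 and 4 in the CAC tumors and 21, 26, 9, 13 and 17 in the sporadic tumors (-1.97 ± 0.34, adjusted p = 0.0104). Npas2, which activates it, read 60, 46, 35 and 37 in the CAC tumors and 10, 22, 17, 16 and 25 in the sporadic tumors (1.34 ± 0.29, adjusted p = 0.0274) and differed more between the control pools (3.15, adjusted p = 8.07e-05). Bhlhe40 had 0.62 ± 0.15, adjusted p = 0.0372. Npas2 lost its call when CAC tumor 1, 2 or 4 or sporadic tumor 3 or 4 was left out (adjusted p up to 0.0677), and Bhlhe40 when CAC tumor 1, 2 or 3 or sporadic tumor 1, 2, 3 or 4 was left out (adjusted p up to 0.0913). Without CAC tumor 1, 0 clock genes were higher and Nr1d1 was lower.

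**Figure D5:**
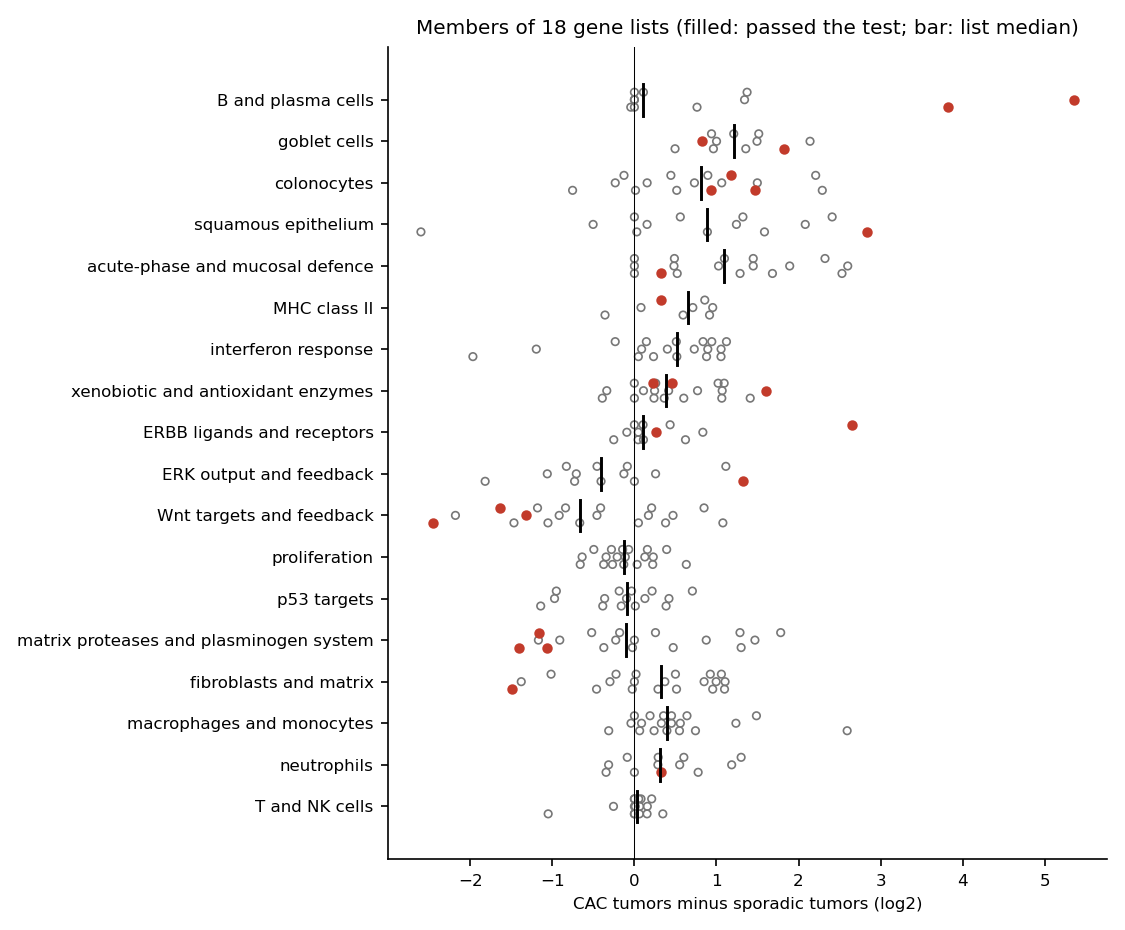
Difference between CAC and sporadic tumors (log2) for each measured member of 18 gene lists, with 1 point per gene, filled where called, and a bar at the list median. Goblet cell members all lie above 0 and proliferation members cluster around it, and most members of every list are open circles that did not pass.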

How the data were processed

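The deposited table holds 22690 probe sets and a linear, whole-number intensity from 2 to 31599 for each of 14 1-colour Affymetrix arrays, made by the authors with GCRMA (per the submitters' processing notes). The series' value table holds the same intensities. The deposited fold change (ratio) and p-value columns, given per the file headers, were not used, and neither were scanner files.

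After removal of 64 AFFX probe sets, 22626 were taken to log2 without offset or filter. Limma 3.58.1 (R 4.3.3) was fitted with lmFit and eBayes to 2 group means on the 9 tumor arrays (7 residual and 0.411 prior degrees of freedom), and to 4 group means on all 14 arrays for the controls and for the tumor minus control difference, adjusted by Benjamini-Hochberg over all probe sets. The steps were tested on simulated data. Symbols were updated through RefSeq, and each gene is read from its probe set with the largest mean over the tumor arrays. Of the probe sets, 831 with several symbols and 604 with none name no gene, and 20 had a date in place of a symbol.

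Named genes are the 15 highest and 15 lowest called genes with a higher group mean of at least 32 and no overlap, up to 4 called members of each list, and Ereg, Areg, Hbegf, Apc, Ctnnb1 and Trp53. Some genes this rule selects are not reported here. The gene lists and their members were chosen with earlier results of these data known. Members not called are named to show a list. Nothing in the labels ties same-numbered tumors to each other. Alternatives were other fits, offsets, filters, normalization, probe set rules, thresholds, a replicate block and each array left out.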

Additional observations from a re-analysis of the deposited data

Results flagged for a closer look

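Within the groups of 4 and 5 tumors, 1 array was flagged for 27 of 258 pairs of a named gene and a group. The measure was the gap to the nearest array divided by the group's range, against Dixon's critical value. For continuous values, chance alone gives such a gap in about 1 of 20 groups, and the cause was not tested. Where the other arrays tie at a whole number the ratio is 1 however small the gap, and the critical value does not apply. The flags of Itgam, Lep and Mmp11, at readings of 10 or less, are such ties near the floor. CAC tumor 1 was the highest of its group for Adamts1 (0.935, reading 41), Angpt2 (0.945, reading 50), Ighg1 (0.938, reading 2028), Itgam (1, reading 8) and Krt5 (1, reading 1866). CAC tumor 1 was the lowest of its group for Acadvl (0.95, reading 218), Calr (0.841, reading 1066), Hoxb9 (0.877, reading 17), Mcl1 (0.842, reading 1100), Saa1 (0.936, reading 46) and Saa2 (0.881, reading 28). CAC tumor 2 was the highest of its group for Lep (1, reading 7), Mmp11 (1, reading 10) and Trib2 (0.875, reading 22). CAC tumor 2 was the lowest of its group for Trp53 (0.862, reading 144). CAC tumor 4 was the highest of its group for Car4 (0.94, reading 181). Sporadic tumor 1 was the highest of its group for Dapk2 (0.775, reading 27) and Itgam (1, reading 9). Sporadic tumor 1 was the lowest of its group for Dach2 (0.731, reading 24), Hspb1 (0.793, reading 1264), Msrb2 (0.767, reading 31) and Trib2 (0.825, reading 63). Sporadic tumor 2 was the highest of its group for Tgfb1 (0.741, reading 100). Sporadic tumor 3 was the lowest of its group for Selenom (0.719, reading 12). Sporadic tumor 4 was the highest of its group for Ighg (0.883, reading 22) and Iglv1 (1, reading 16). Sporadic tumor 5 was the lowest of its group for Ly6a (0.901, reading 882).

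Many of the genes examined were chosen for their tumor difference, which favors passing in the test given here. The tumor difference minus the control difference passed limma's test for 44 of 140 genes examined, beside 7.69% of all probe sets. It was positive for Iglv1 (5.15, adjusted p = 0.00514), Areg (3.78, adjusted p = 0.0364), LOC384413 (2.90, adjusted p = 0.0196), Ly6d (2.66, adjusted p = 0.0113), Clu (2.62, adjusted p = 0.0227), Gna14 (2.60, adjusted p = 0.0122), Spdef (2.32, adjusted p = 0.0358), Ptgs2 (1.90, adjusted p = 0.0376), Dapk2 (1.67, adjusted p = 0.018), Gpx2 (1.58, adjusted p = 0.0418), Tspan8 (1.34, adjusted p = 0.0152), Upp1 (1.31, adjusted p = 0.0158) and Bhlhe40 (1.14, adjusted p = 0.0218). It was negative for Pyy (-4.22, adjusted p = 0.0193), Pfn2 (-4.11, adjusted p = 0.0375), Lmo2 (-3.45, adjusted p = 0.0182), Dach2 (-3.43, adjusted p = 0.0248), Pdzrn3 (-3.27, adjusted p = 0.00939), Slc16a3 (-2.89, adjusted p = 0.0453), Trib2 (-2.87, adjusted p = 6.05e-04), Asprv1 (-2.87, adjusted p = 0.0153), Robo1 (-2.76, adjusted p = 0.0107), Evl (-2.61, adjusted p = 1.64e-04), Cryab (-2.40, adjusted p = 0.0054) and Ltbp4 (-2.34, adjusted p = 0.00109). It was also negative for Wnt6 (-2.29, adjusted p = 0.0357), Hspb8 (-2.19, adjusted p = 4.52e-04), Vim (-2.12, adjusted p = 0.011), Tgfb1 (-2.06, adjusted p = 8.57e-04), Lfng (-1.89, adjusted p = 0.0106), Vegfc (-1.85, adjusted p = 0.04), Anxa6 (-1.82, adjusted p = 0.0152), Npas2 (-1.80, adjusted p = 0.0227), Mmp11 (-1.57, adjusted p = 0.0126), Timp2 (-1.56, adjusted p = 0.0456), Ctnnb1 (-0.66, adjusted p = 6.56e-04) and Itgam (-0.57, adjusted p = 0.0281). Itgam lay near the floor, at 9 or less on every tumor array. For Cyp1b1 (0.0297, adjusted p = 0.0488), Egf (0.0406, adjusted p = 0.00906), H2-Oa (0.41, adjusted p = 0.00572), Ifng (0.26, adjusted p = 2.54e-10), Lep (0.32, adjusted p = 0.0142), Mpo (0.32, adjusted p = 5.92e-11) and Vip (0.26, adjusted p = 2.54e-10) all arrays lay within 2 rounded units of each other near the floor. Tumors and control pools lay in opposite directions without overlap for Cadps (-3.11 in tumors, 0.59 in controls), Cxcl14 (-1.68 in tumors, 0.31 in controls) and Prox1 (-1.47 in tumors, 0.22 in controls). For these the test of the difference did not pass.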

How the results depend on the processing

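The 2466 calls between tumors (1183 higher and 1283 lower in CAC) were within 1.5 times of these counts under most alternatives. They came to 1521 (752 and 769) without probe sets of less specific suffix, 1538 for genes by the brightest probe set (666 higher), 733 (229 and 504) at 2-fold or more, and 1243 (710 and 533) at an adjusted p under 0.01. Those settings keep fewer probe sets or ask for more. With probe sets averaged per gene 854 were lower. Higher calls were 1782 with the spread taken from all 14 arrays and 729 among 9862 probe sets with a mean of at least 32. Leaving out 1 array gave 1843 to 2426 calls, 938 to 1290 higher and 898 to 1136 lower. With quantile normalization 1422 were higher and 1049 lower, and the median difference of probe sets with a mean of at least 32 was 0.01 in place of -0.07.

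The correlations of same-numbered CAC and sporadic tumors, 0.143, 0.033, 0.00562 and 0.0715, did not show pairing. With a replicate block on tumors 1 to 4 of each model, 1071 probe sets were called, 692 higher and 379 lower, against 957 higher and 898 lower on the same arrays without it.

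Between control pools 3171 were called in the fit of all 14 arrays, 1838 from the controls alone, 1651 with a mean of at least 32, and 2165 to 3108 without 1 pool, where a single remaining CAC pool takes its spread from the other groups. With a replicate block limma called 0 (4275 at an unadjusted p under 0.05), with 1 residual degree of freedom.

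Of 104 named or chosen genes, 99 were called, and 71 of these kept the call whichever array was left out. With the replicate block 34 kept it. The direction of the 99 called genes was the same under every alternative in which they were measured. No detection calls were used, and low signals are bound by whole-number rounding: 4276 probe sets had the same value on all 9 tumor arrays.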

Other observations

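Eif2s3y, a Y-linked gene, read 14 on CAC tumors 1 and 4 and on sporadic tumor 3, and 234 to 299 on the other 6 tumor arrays. Ddx3y, another Y-linked gene, read 60 to 109 in the CAC tumors and 73 to 154 in the sporadic tumors. Xist, the RNA of the inactive X chromosome, read 6 on all 9 tumor arrays, and the labels give all mice as male. The low arrays lie in both groups, and the cause was not tested.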
